A study of Homo sapiens with 12 samples.

Results

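Glycolysis splits glucose into pyruvate in the cytosol and yields ATP without oxygen, and hypoxia-inducible factor (HIF) is the transcription factor that raises many of its genes when oxygen is scarce. The 34 genes described here were taken by name: 17 enzymes of the glycolytic chain and its end step to lactate, 15 target genes of HIF outside that chain, and the 2 oxygen-labile alpha subunits of HIF. They were found among the 61541 gene IDs of each deposited gene table. All 34 had an ID, and 33 passed the filter on low counts that left 12329 genes to be tested. The exception was CA9, the membrane carbonic anhydrase often used as a marker of hypoxia, which had 1 count in all 12 libraries together.

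The cells were IMR90 fibroblasts from human lung, of wild-type genotype. All 4 groups had received doxorubicin, a topoisomerase poison that breaks DNA, for 24 h and were then kept for at least 8 days, the time the protocol gives for senescence to develop. The groups were a 2 kPa gel with 250 nM drug, plastic with 250 nM drug, the 2 kPa gel with 100 nM drug, and plastic with 100 nM drug, with 3 libraries of polyadenylated RNA each. The soft support is called a hydrogel in the titles and a PDMS coating in the growth protocol, and the drug doses stand in nM in the titles but in µM, with equal numbers, in the treatment protocol. Cells without drug, quiescent cells, a lower dose and a stiffer gel are named in the protocols and were not analysed here, so nothing below compares senescent with growing cells. Whether replicates were separate cultures is not given, so p-values measure only the spread between these libraries, which may be technical.

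In glycolysis, hexokinases trap glucose as its phosphate, phosphofructokinase commits it to the pathway, the enzymes from GAPDH to pyruvate kinase recover energy, and lactate dehydrogenase restores the NAD+ that GAPDH needs. In the presence of oxygen the prolyl hydroxylases of the EGLN family mark HIF alpha proteins for destruction by the VHL complex. When oxygen falls the alpha subunit persists, pairs with ARNT and binds DNA at a short element whose centre reads ACGTG or GCGTG.

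Total counts per library ran from 2229060 to 2730293 in the 6 libraries at 250 nM and from 5887051 to 7351904 in the 6 libraries at 100 nM. The names of the deposited tables at 250 nM, and not those at 100 nM, mention molecular identifiers, so dose and library set cannot be told apart, and every comparison of 250 with 100 nM below carries that limit. The gel comparisons lie within a library set. Replicate 1 of the gel at 250 nM stood apart: its mean correlation with its own group was 0.845, against 0.895 to 0.958 in the other 11 libraries, and its mitochondrial share of protein-coding counts was 8.11%, against 2.58% to 5.12% in the others. Ribosomal repeat loci took 13.2% of its counts and 14.3% of those of replicate 1 of plastic at 100 nM, where the highest library had 30.7%. Among the 33 members replicate 1 of the gel at 250 nM had the highest CPM of all 12 libraries for 10 and the lowest for 7. Replicate 1 of the gel at 100 nM, the library with 30.7%, had the lowest for 9 and the highest for 1. The 11 fibroblast markers were all present, with FN1 leading, while 4 of 14 epithelial markers (led by KRT18), 2 of 12 endothelial and none of the 14 leukocyte markers passed the filter.

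The enzymes spanned from 1579 to 1.92 TPM (a relative transcript level scaled for length), as means over 12 libraries. PGK1, phosphoglycerate kinase, which makes the first ATP of the pathway, led with 1579 TPM. In TPM it exceeded LDHA, the muscle-type subunit of lactate dehydrogenase, in 12 of 12 libraries. The order given here is that of TPM and differs in CPM, which are not scaled for length. There LDHA averaged 1836 and PGK1 1551. LDHA averaged 944 TPM, GAPDH 729.8 TPM and the enolase ENO1 673 TPM. LDHA exceeded GAPDH in 9 of 12 libraries and GAPDH exceeded ENO1 in 9 of 12, so the order within this trio is not fixed across libraries. The aldolase ALDOA (416 TPM) and the isomerase TPI1 (409 TPM) were close to each other in TPM, with ALDOA higher in 8 of 12 libraries. In CPM they were not close, with means of 232 for ALDOA and 628 for TPI1. PGAM1 (284 TPM), LDHB (255 TPM) and PKM (216 TPM) formed the next step, and GPI was lower than PKM in every library at 82 TPM. The entry enzymes had far lower levels: PFKP averaged 49.5 TPM, PFKL 24.4 TPM, HK1 23.4 TPM, HK2 7.30 TPM and PFKM 6.75 TPM. The brain-type enolase ENO2 averaged 39.1 TPM.

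Among the HIF target genes BNIP3L and BNIP3, a pair of mitochondrial proteins that mark mitochondria for mitophagy, led with 337 and 173 TPM, and BNIP3L exceeded BNIP3 in 12 of 12 libraries. ADM, the vasodilator peptide adrenomedullin, averaged 86.8 TPM and ERO1A, an oxidase of the endoplasmic reticulum, 73.7 TPM, each higher than the other in 6 of 12 libraries. NDRG1, a stress-induced gene, averaged 61.1 TPM and PDK1, the kinase that shuts off pyruvate dehydrogenase, 29.2 TPM. EGLN1, the main oxygen sensor, averaged 21.7 TPM, ANKRD37 19.0 TPM and DDIT4, an inhibitor of mTORC1, 18.8 TPM. PFKFB3, which makes the sugar phosphate that activates phosphofructokinase, averaged 13.4 TPM, and its relative PFKFB4 1.94 TPM. KDM3A, a histone demethylase, averaged 11.8 TPM, the carbonic anhydrase CA12 9.12 TPM and EGLN3 1.56 TPM. Of the alpha subunits, HIF1A averaged 241 TPM and EPAS1, which encodes HIF-2 alpha, 30.2 TPM.

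**Figure D1:**
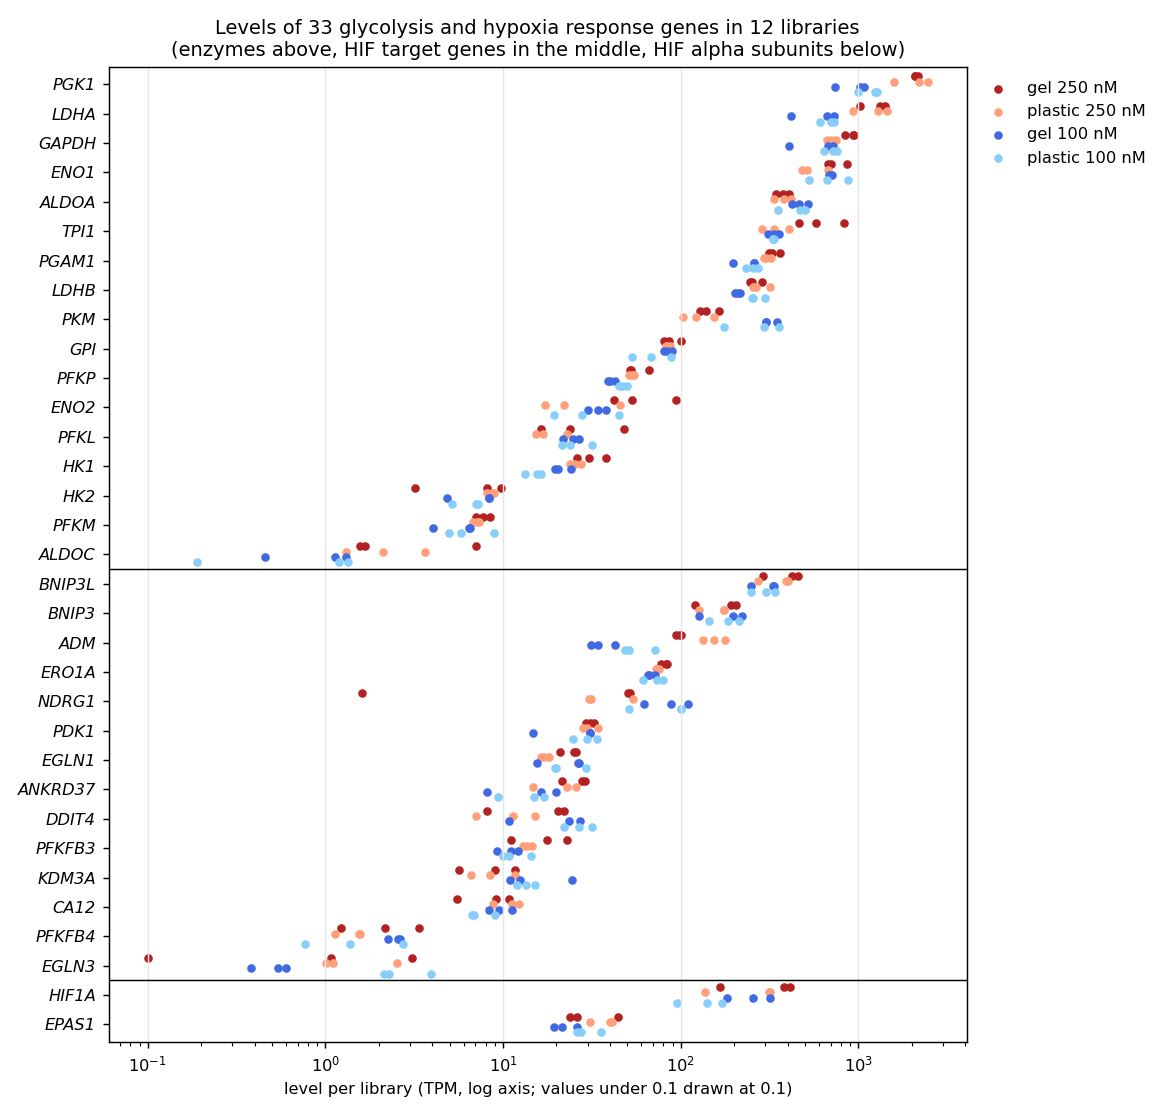
TPM of the 33 members that passed the filter in each of 12 libraries, on a log axis, with 3 points per group and gene. Enzymes stand above, HIF target genes in the middle and the alpha subunits below; the low red NDRG1 point is replicate 1 of the gel at 250 nM, at 1.61 TPM.

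Positions in GRCh38 (GENCODE 29) place PGK1 on chromosome X from 77910739 to 78129296 (plus strand), LDHA on chromosome 11 from 18394388 to 18408425 (plus strand), ADM on chromosome 11 from 10304680 to 10307397 (plus strand) and KDM3A on chromosome 2 from 86440647 to 86492716 (plus strand). HK1 lies on chromosome 10 from 69269984 to 69401884 (plus strand). TPI1 lies on chromosome 12 from 6867119 to 6870948 (plus strand) and GAPDH on chromosome 12 from 6533927 to 6538374 (plus strand). The promoters of 4 members are shown. These are a selection from the 9 members called between doses on the gel, as described further on (PGK1, LDHA and ADM higher at 250 nM, KDM3A lower). The HIF core element can be read in these 4. PGK1 and LDHA hold several matches and ADM and KDM3A hold 1 each. The windows shown are the 250 bases before the RefSeq start site (GRCh38.p14, plus strand). Every ACGTG or GCGTG on either strand is in capitals, so that overlapping matches of a palindrome form a longer run. PGK1 spans chrX:78103998-78104247, LDHA chr11:18394313-18394562, ADM chr11:10304823-10305072 and KDM3A chr2:86441121-86441370. These RefSeq windows lie within the GENCODE gene spans or across their first base.
PGK1: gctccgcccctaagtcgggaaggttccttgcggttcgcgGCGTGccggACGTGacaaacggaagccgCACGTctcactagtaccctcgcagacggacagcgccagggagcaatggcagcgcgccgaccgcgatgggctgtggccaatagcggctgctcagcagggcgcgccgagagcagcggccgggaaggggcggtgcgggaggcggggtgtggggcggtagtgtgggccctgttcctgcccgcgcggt
LDHA: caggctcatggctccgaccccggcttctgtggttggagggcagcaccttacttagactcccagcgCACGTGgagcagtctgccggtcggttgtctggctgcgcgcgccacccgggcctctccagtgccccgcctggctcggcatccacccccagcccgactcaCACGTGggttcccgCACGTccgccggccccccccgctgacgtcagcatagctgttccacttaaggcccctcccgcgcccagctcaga
ADM: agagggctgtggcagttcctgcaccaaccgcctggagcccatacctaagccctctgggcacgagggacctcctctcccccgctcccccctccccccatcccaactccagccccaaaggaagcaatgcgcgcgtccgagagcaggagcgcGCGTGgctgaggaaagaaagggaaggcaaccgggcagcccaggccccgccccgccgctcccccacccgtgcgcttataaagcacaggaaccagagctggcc
KDM3A: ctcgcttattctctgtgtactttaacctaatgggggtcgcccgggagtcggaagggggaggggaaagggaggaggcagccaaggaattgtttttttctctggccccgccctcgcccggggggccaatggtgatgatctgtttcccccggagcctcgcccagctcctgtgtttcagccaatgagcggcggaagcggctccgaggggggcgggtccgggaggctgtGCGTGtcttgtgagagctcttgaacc

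PGK1 has 3 matches and LDHA 5, counting both strands of a palindrome. Over 32 of 34 members with a RefSeq promoter window of 300 bases, 39 of 56 windows (69.6%) held at least 1 match, against 61.4% of the windows of all tested genes and 48.4% of all 35116 windows in the table. The enzymes held it in 23 of 37 windows and the HIF target genes in 14 of 16. EGLN3 and PGAM1 had no match in their windows. Of the other called members not shown, HK1 held a match in 2 of 7 windows, TPI1 in 1 of 2, GAPDH in 1 of 1 and PFKFB3 in 2 of 2. A short word such as this occurs often by itself, and a match is a description of the letters, not a bound site.

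The 17 enzymes together made up 1.08 ± 0.107% of protein-coding TPM on the gel at 250 nM, 1.00 ± 0.0631% on plastic at 250 nM, 0.879 ± 0.0485% on the gel at 100 nM and 0.850 ± 0.113% on plastic at 100 nM (SD, n = 3 each). The HIF target genes made up 0.142 ± 0.0406%, 0.144 ± 0.0163%, 0.151 ± 0.0171% and 0.138 ± 0.0106% in the same order. These shares of summed levels are a description and were not tested.

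Gel against plastic asks whether a soft support changes these genes in doxorubicin-treated fibroblasts. No member passed the test at either dose or over both. At 250 nM edgeR's quasi-likelihood test called 0 of 33 members at a Benjamini-Hochberg adjusted p under 0.05, where 0.00811% of all tested genes were called. At 100 nM it called 0 of 33, against a background of 0.227%, and over both doses 0 of 33, against 0.754%. At an unadjusted p under 0.05 the members numbered 6 of 33 at 250 nM, 4 of 33 at 100 nM and 6 of 33 over both doses, where 10.0%, 9.90% and 12.5% of all tested genes were under it. The median member changed by 0.13 at 250 nM, 0.02 at 100 nM and 0.12 over both doses on the log2 scale, beside -0.02, -0.01 and 0.00 for all tested genes. Of the 33 members 24 had a value above 0 at 250 nM, 18 at 100 nM and 24 over both doses, where 48.0%, 48.9% and 49.3% of all tested genes did.

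The groups of 3 libraries were apart for 5 members with the gel higher and 1 with the gel lower at 250 nM, where 7.45% and 7.62% of all tested genes were. The 5 were TPI1, GAPDH, ENO1, ENO2 and HK1, and the other was ADM. At 100 nM they were apart for 2 members with the gel higher and 3 with the gel lower, where 9.62% and 9.38% of all tested genes were. These were HK1 and HIF1A higher, and ADM, EGLN3 and EPAS1 lower. Some values of other kinds also differed between the supports, not all of them at both doses. The summed CPM of 11 fibroblast markers was 9486 to 11036 on the gel, against 11138 to 14561 on plastic, at 250 nM, and 9134 to 12189 on the gel, against 10524 to 12077 on plastic, at 100 nM, where the ranges overlapped. FN1 holds most of that sum. Of the 11 markers edgeR called 1 lower on the gel at 250 nM, 5 at 100 nM and 6 over both doses, and none higher, with medians of -0.79, -0.91 and -0.90 on the log2 scale. The 12 endothelial markers, of which 2 passed the filter and 1 was at 0 throughout, summed to 14.7 to 33.6 CPM on the gel, against 37.4 to 48.2 CPM on plastic, at 250 nM, and to 10.8 to 18.1 CPM on the gel, against 25.6 to 39.1 CPM on plastic, at 100 nM. A single gene, TEK, led that sum with a mean of 20.8 CPM. Mitochondrially encoded messenger RNAs summed to 36086 to 57349 CPM on the gel, against 27311 to 35329 CPM on plastic, at 250 nM. At 100 nM they overlapped, with 22658 to 24407 CPM on the gel, against 17028 to 26929 CPM on plastic. Of these 13 RNAs edgeR called 0 at either dose and 1 higher on the gel over both doses. The part of these in the results was not tested, and in bulk RNA fewer cells expressing a gene and less RNA per cell cannot be told apart.

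Other tools gave more calls. DESeq2 called 1 member at 250 nM, 0 at 100 nM and 3 over both doses, and limma-voom with sample weights called 3, 2 and 7. They also called more of the 12329 tested genes, 97, 163 and 385 with DESeq2 and 161, 447 and 801 with limma-voom. Both tools called ADM, HK1 and TPI1 over both doses, and limma-voom added ENO2, EPAS1, HIF1A and PFKFB4. The limma-trend fits on log2(TPM + 1) called 0 members in each gel comparison.

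ADM was the member with the smallest p over both doses. Its CPM (counts-per-million, on library sizes scaled by TMM) was 156, 156 and 154 on the gel at 250 nM, against 185, 272 and 243 on plastic. The 100 nM libraries had 47.5, 48.0 and 60.6 on the gel, against 89.2, 76.3 and 66.7 on plastic. Every gel library lay below every plastic library of its dose, a pattern that 1.94% of all tested genes showed. The fitted change over both doses was -0.58 ± 0.14 (log2 ± SE), a ratio of 0.669, with an adjusted p of 0.0715 by edgeR. The 2 doses gave -0.59 and -0.57. The adjusted p was 0.0414 without replicate 1 of the gel at 250 nM, and it ran from 0.00527 (DESeq2) to 0.182 over 23 alternatives.

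HK1, the hexokinase of most resting tissues, ran the other way. It had 137, 109.7 and 119.6 CPM on the gel, against 95.2, 91.1 and 99.7 CPM on plastic, at 250 nM. At 100 nM it had 74.8, 71.9 and 85.7 CPM on the gel, against 49.0, 51.3 and 56.9 CPM on plastic. All gel libraries exceeded all plastic libraries of their dose, as for 1.24% of all tested genes. The change over both doses was 0.46 ± 0.12 (log2 ± SE; edgeR adjusted p = 0.0886), and the adjusted p ran from 0.00798 (DESeq2) to 0.309 over 23 alternatives.

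TPI1, which interconverts the triose phosphates, and ENO2 were highest on the gel at 250 nM. TPI1 had 1268, 794 and 952 CPM on the gel at 250 nM, against 595, 449 and 559.9 CPM on plastic. Its change was 0.91 ± 0.20 (log2 ± SE) with an edgeR adjusted p of 0.201, and 0.01 ± 0.19 at 100 nM, where it had 476, 472 and 512 CPM on the gel, against 477, 518 and 459.8 CPM on plastic. Replicate 1 of the gel at 250 nM held the highest value, and without it the change at 250 nM was 0.68. ENO2 had 175, 90.4 and 109 CPM on the gel at 250 nM, against 82, 34.1 and 45.0 CPM on plastic, all gel libraries being higher. ENO2 at 100 nM had 72.4, 55.3 and 63.0 CPM on the gel, against 72.7, 37.3 and 49.5 CPM on plastic, with overlap. The change of ENO2 was 1.22 ± 0.34 at 250 nM (edgeR adjusted p = 0.274) and 0.74 ± 0.24 over both doses (edgeR adjusted p = 0.188), and 0.86 at 250 nM without replicate 1 of the gel. 

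The difference of the gel effect between doses passed for no member. The edgeR test called 0 of 33 members and 0.0% of all tested genes, with 2 of 33 members and 6.32% of genes at an unadjusted p under 0.05. Those 2 were TPI1, with a difference of 0.90 ± 0.28, and GAPDH, with 0.60 ± 0.28. DESeq2, limma-voom and limma-trend also called 0 members for the difference.

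The largest fitted differences of the gel effect between doses were those of EGLN3 and DDIT4. EGLN3, a prolyl hydroxylase that is itself a HIF target, had 0, 3.38 and 1.26 CPM on the gel at 250 nM, against 2.88, 0.935 and 2.35 CPM on plastic. The EGLN3 values at 100 nM were 0.903, 0.821 and 0.710 CPM on the gel, against 3.32, 4.63 and 2.52 CPM on plastic, without overlap. The change at 100 nM was -2.07 ± 0.76 (edgeR adjusted p = 0.392) and the difference between doses 1.55 ± 1.17. Over both doses the EGLN3 change was -1.30, the lowest of the 33 members, and was not called. Without replicate 1 of the gel at 250 nM it was -0.98, and the difference between doses was 2.18. These rest on 112 counts in all 12 libraries. DDIT4 had 14.5, 38.2 and 38.6 CPM on the gel at 250 nM, against 23.5, 19.6 and 12.5 CPM on plastic. At 100 nM DDIT4 had 18.4, 37.4 and 42.9 CPM on the gel, against 37.9, 37.2 and 49.0 CPM on plastic, and the groups overlapped at both doses. For DDIT4 the overlap at 250 nM rests on replicate 1 of the gel. Without that library its change at 250 nM was 1.03 and its difference between doses 1.34 (edgeR adjusted p = 0.425 and 0.903).

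**Figure D2:**
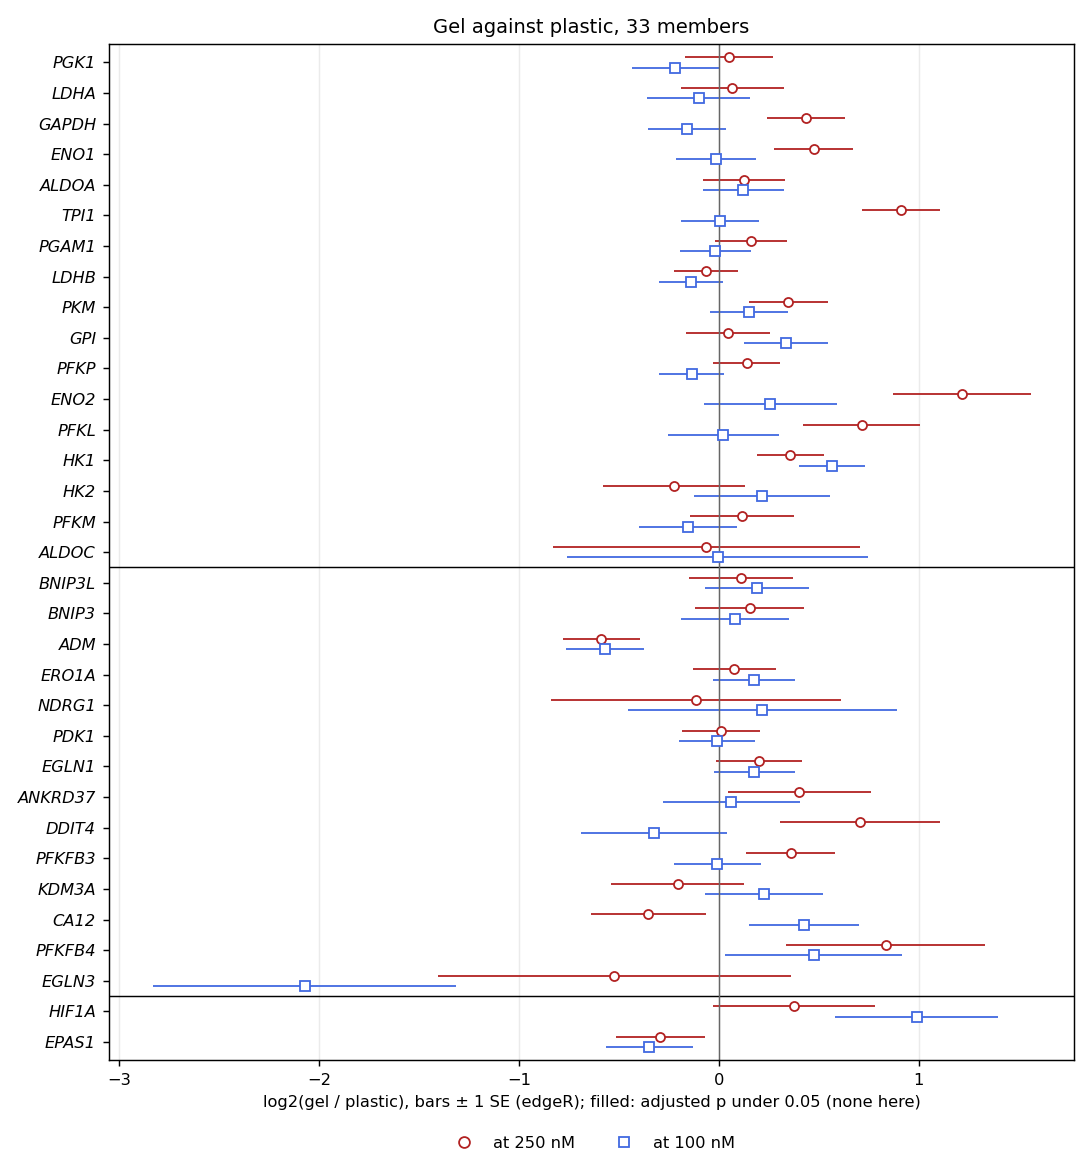
Fitted log2 change of gel over plastic for each of the 33 members at 250 nM (circles) and 100 nM (squares), with bars of 1 SE. No point is filled, since no member passed the test; ADM lies left of 0 and HK1 right of 0 at both doses.

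The alpha subunits moved apart in direction, without a call. HIF1A had 589, 1662 and 1462 CPM on the gel at 250 nM, against 468, 1178 and 1216 CPM on plastic. At 100 nM HIF1A had 657, 864 and 1079 CPM on the gel, against 431, 582 and 298 CPM on plastic, and there the groups did not overlap. The change at 100 nM was 0.99 ± 0.41 (edgeR adjusted p = 0.454) and over both doses 0.68 ± 0.29 (edgeR adjusted p = 0.334). EPAS1 had 149.7, 95.7 and 99.0 CPM on the gel at 250 nM, against 107, 158 and 158 CPM on plastic, with overlap. At 100 nM it had 77.7, 87.5 and 68.9 CPM on the gel, against 110.1, 93.4 and 94.3 CPM on plastic, all gel libraries lower. The change over both doses was -0.32 ± 0.16 (edgeR adjusted p = 0.422). For EPAS1 the overlap at 250 nM rests on replicate 1 of the gel. Without that library the change over both doses was 0.84 for HIF1A and -0.45 for EPAS1 (edgeR adjusted p = 0.0963 and 0.0967). At 250 nM alone it was then 0.69 and -0.56 (edgeR adjusted p = 0.665 and 0.445). Of the TPM of both alpha genes, HIF1A held 89.1 ± 8.73% on the gel and 86.3 ± 4.03% on plastic at 250 nM, and 91.5 ± 2.47% on the gel and 81.4 ± 4.71% on plastic at 100 nM (SD, n = 3 each).

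BNIP3L and BNIP3, the most abundant HIF target genes of the list, did not pass in any gel comparison. BNIP3L had 401, 745 and 757 CPM on the gel, against 415, 670.2 and 678 CPM on plastic, at 250 nM. At 100 nM it had 413, 491 and 515 CPM on the gel, against 398, 482 and 363 CPM on plastic. BNIP3 had 188, 354 and 312 CPM on the gel, against 189, 282 and 296 CPM on plastic, at 250 nM. At 100 nM BNIP3 had 199.6, 323 and 288 CPM on the gel, against 274, 289 and 204 CPM on plastic. The groups overlapped at both doses for both genes, with changes over both doses of 0.15 ± 0.18 and 0.12 ± 0.19 (log2 ± SE), or 0.26 and 0.22 without replicate 1 of the gel at 250 nM. Pseudogenes, of which BNIP3 has 44 in the annotation, held 1.84% of the counts of BNIP3 and its pseudogenes.

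No gel change of the most abundant enzymes passed, and the fitted values of GAPDH and ENO1 had opposite signs at the 2 doses. GAPDH gave 0.44 ± 0.20 at 250 nM, where all gel libraries lay above all plastic libraries, and -0.16 ± 0.20 at 100 nM (edgeR adjusted p = 0.476 and 0.840). ENO1 gave 0.47 ± 0.20 at 250 nM, also without overlap, and -0.02 ± 0.20 at 100 nM (edgeR adjusted p = 0.434 and 0.990). The change over both doses was -0.08 ± 0.15 for PGK1, -0.02 ± 0.18 for LDHA, 0.14 ± 0.14 for GAPDH and 0.07 ± 0.13 for PGAM1 (log2 ± SE). Among the others, ENO1 gave 0.23 ± 0.14, PKM 0.25 ± 0.14, ALDOA 0.12 ± 0.14, GPI 0.19 ± 0.15 and LDHB -0.10 ± 0.11. The rest of the enzymes lay between -0.04 (ALDOC) and 0.37 (PFKL), apart from HK1, TPI1 and ENO2. Both ends rest on replicate 1 of the gel at 250 nM, without which ALDOC gave -0.55 and PFKL 0.12. PFKL, the liver-type phosphofructokinase, had 90.5, 35.8 and 48.7 CPM on the gel at 250 nM, against 41.2, 30.8 and 35.2 CPM on plastic. The high value is replicate 1 of the gel, and the change at 250 nM was 0.71 with it and 0.22 without it. In the HIF target group, the uncalled changes over both doses of the genes not given above were 0.00 for PDK1, 0.17 for PFKFB3, 0.65 for PFKFB4, 0.19 for EGLN1, 0.23 for ANKRD37, 0.13 for ERO1A, 0.04 for CA12, 0.01 for KDM3A, 0.19 for DDIT4 and 0.05 for NDRG1. Without replicate 1 of the gel at 250 nM several of these moved, to 0.34 for NDRG1, 0.35 for DDIT4, 0.16 for CA12, 0.15 for KDM3A and 0.07 for PFKFB3.

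Between the doses more members differed. On the gel 9 of 33 members passed at 250 against 100 nM, 8 higher and 1 lower, where 13.8% of all tested genes passed, 6.91% higher and 6.9% lower. On plastic 4 of 33 passed, all higher, where 8.52% of all tested genes passed, 4.04% higher and 4.48% lower. Doses were apart without overlap on the gel for 14 members with 250 nM higher and 3 with 250 nM lower, where 16.5% and 19.3% of all tested genes were. On plastic they were apart for 9 members with 250 nM higher and 3 with 250 nM lower, where 16.4% and 19.3% were. Values above 0 were held by 25 members on the gel and 22 on plastic, where 49.0% and 48.0% of all tested genes had one. The median member changed by 0.42 on the gel and 0.14 on plastic (log2), beside -0.02 and -0.03 over all tested genes. Of the enzymes 6 of 17 rose on the gel and 3 of 17 on plastic, with medians of 0.52 and 0.23. Of the HIF target genes that could be tested 2 of 14 rose and 1 fell on the gel, and 1 of 14 rose on plastic. Neither alpha subunit passed. Other RNAs also differed between the doses. Mitochondrially encoded messenger RNAs summed to 36086 to 57349 CPM at 250 nM, against 22658 to 24407 CPM at 100 nM, on the gel, and to 27311 to 35329 CPM, against 17028 to 26929 CPM, on plastic. They did not all rise. Of these 13 RNAs 9 had a change above 0 on the gel, where edgeR called 7 higher and 1 lower. On plastic 7 of 13 did, with 3 called higher and 0 lower. The 10 pericyte and smooth muscle markers, of which 5 passed the filter, summed to 198 to 268 CPM at 250 nM, against 130.1 to 189 CPM at 100 nM, on the gel, and to 235 to 316 CPM, against 153 to 224 CPM, on plastic. The part of these in the results was not tested.

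HK1, PGK1, LDHA and ADM, 4 genes in all, were higher at 250 nM on both supports. ADM differed the most. Of the ADM values given above, the lowest at 250 nM (154 CPM) lay above the highest at 100 nM (89.2 CPM). Its change was 1.58 ± 0.20 on the gel, a ratio of 2.98 (edgeR adjusted p = 0.00198), and 1.59 ± 0.20 on plastic, a ratio of 3.01 (edgeR adjusted p = 0.00216). It passed in all 24 alternative settings on both supports.

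PGK1 had 1942, 2322 and 2122 CPM on the gel at 250 nM, against 774, 988 and 1038 CPM on the gel at 100 nM. On plastic it had 1446, 2453 and 2269 CPM at 250 nM, against 1070.2, 1256 and 931 CPM at 100 nM. The doses did not overlap on either support, and replicate 1 was the lowest of its group at 250 nM on both. The change was 1.19 ± 0.22 on the gel (edgeR adjusted p = 0.00697) and 0.92 ± 0.22 on plastic (edgeR adjusted p = 0.0234). LDHA had 1892, 2879.8 and 2896 CPM on the gel at 250 nM, against 827, 1229.6 and 1343 CPM on the gel at 100 nM. On plastic LDHA had 1702, 2921 and 2696 CPM at 250 nM, against 1147, 1426 and 1078 CPM at 100 nM. All LDHA values at 250 nM exceeded those at 100 nM on the same support. Its change was 1.17 ± 0.26 on the gel (edgeR adjusted p = 0.0135) and 1.00 ± 0.26 on plastic (edgeR adjusted p = 0.0318). HK1 rose by 0.66 ± 0.17 on the gel (edgeR adjusted p = 0.0217) and 0.86 ± 0.17 on plastic (edgeR adjusted p = 0.0108), with no overlap between doses on either support.

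TPI1, GAPDH, PGAM1 and PFKFB3 passed on the gel and not on plastic, and KDM3A was the only member that fell in the edgeR fit. A pass on one support alone does not show that the supports differ, and the difference of the gel effect between doses, which is the same contrast, called no member. TPI1 changed by 1.05 ± 0.20 on the gel (edgeR adjusted p = 0.00724) and 0.14 on plastic. GAPDH, the enzyme often used as a reference transcript, had 999.6, 1006 and 1055 CPM on the gel at 250 nM, against 456, 712 and 751 CPM on the gel at 100 nM. On plastic GAPDH had 749.5, 722 and 791 CPM at 250 nM, against 691, 802 and 656 CPM at 100 nM, with overlap. The change was 0.67 ± 0.20 on the gel (edgeR adjusted p = 0.0369) and 0.07 on plastic. PGAM1, the mutase that follows PGK1, had 536, 729 and 614 CPM on the gel at 250 nM, against 364, 446 and 444 CPM on the gel at 100 nM. On plastic it had 511, 601 and 569 CPM at 250 nM, against 413, 467 and 391 CPM at 100 nM. The groups did not overlap on either support, with 0.58 ± 0.18 on the gel (edgeR adjusted p = 0.0452) and 0.40 ± 0.18 on plastic (edgeR adjusted p = 0.171).

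PFKFB3 had 94.8, 52.2 and 78.9 CPM on the gel at 250 nM, against 40.5, 45.0 and 49.4 CPM on the gel at 100 nM. On plastic PFKFB3 had 53.6, 57.0 and 66.1 CPM at 250 nM, against 51.8, 43.0 and 40.8 CPM at 100 nM. Doses did not overlap on either support, though the gap was small. Its change was 0.75 ± 0.22 on the gel (edgeR adjusted p = 0.0376), which became 0.52 without the high replicate 1 of the gel at 250 nM, with an adjusted p of 0.113 in a range of 0.0138 to 0.169 over 24 alternatives. KDM3A had 8.55, 12.6 and 24.3 CPM on the gel at 250 nM, against 29.4, 36.4 and 38.0 CPM on the gel at 100 nM. On plastic KDM3A had 16.9, 13.6 and 21.5 CPM at 250 nM, against 32.2, 28.2 and 28.5 CPM at 100 nM. All libraries at 250 nM lay below all at 100 nM on the same support, with changes of -1.20 ± 0.32 on the gel (edgeR adjusted p = 0.0257) and -0.77 ± 0.31 on plastic (edgeR adjusted p = 0.140).

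**Figure D3:**
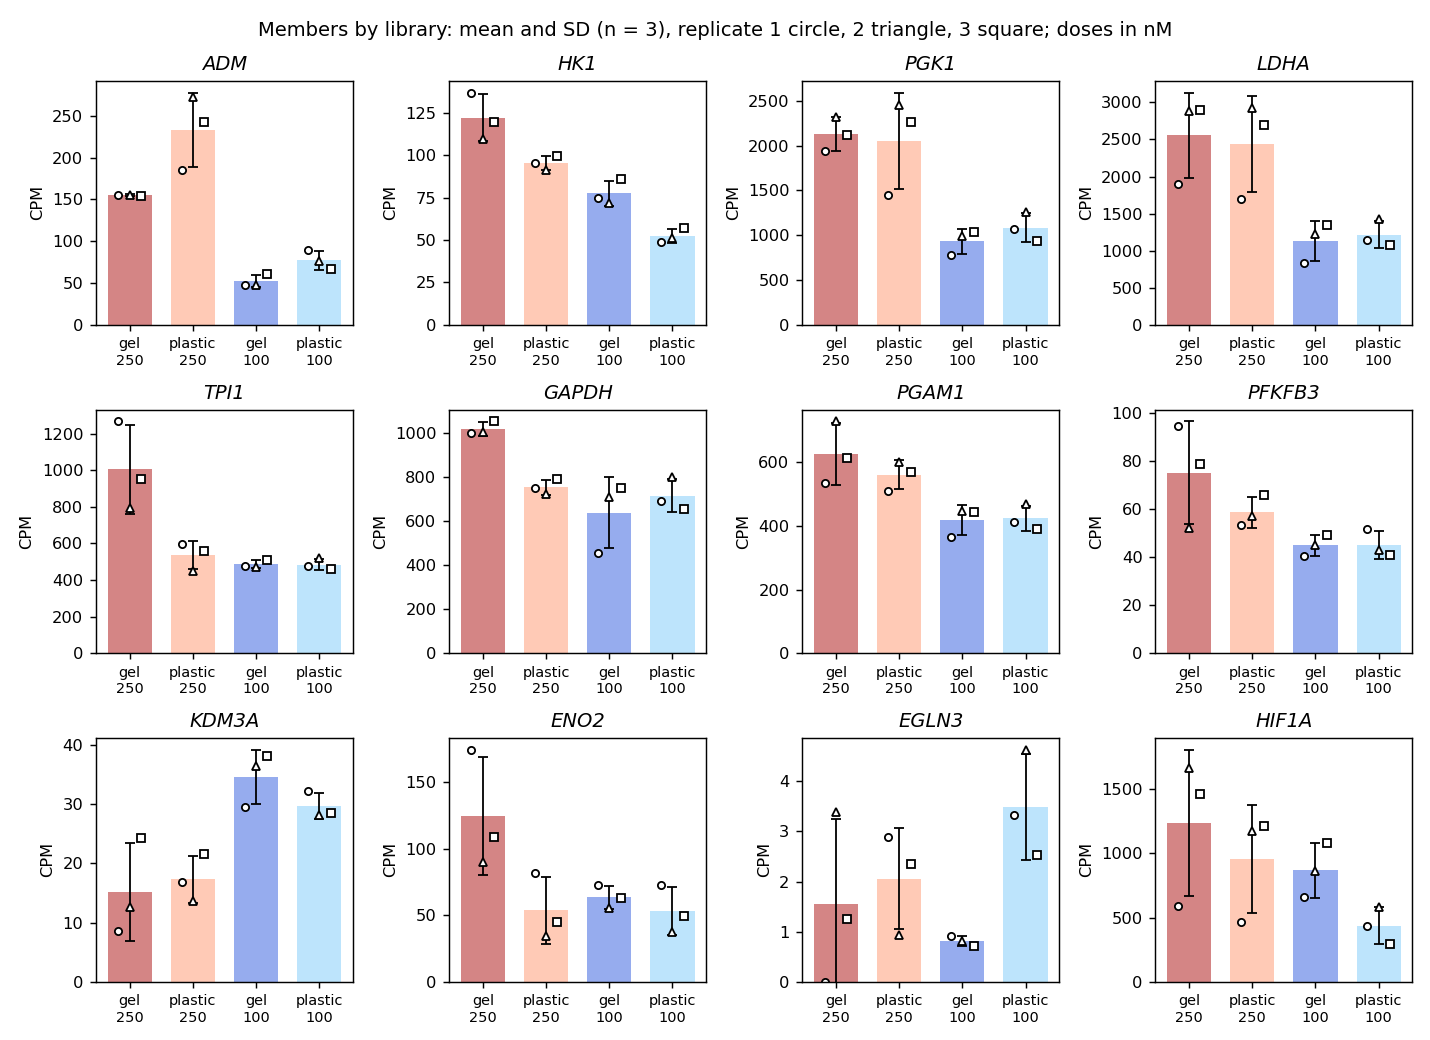
CPM in each library of 12 members, with bars for the mean, error bars for the SD (n = 3) and a symbol for each replicate number. ADM, PGK1 and LDHA stand higher at 250 nM on both supports, KDM3A lower, and replicate 1 (circles) is the lowest of its group at 250 nM for LDHA, PGK1 and HIF1A.

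The calls differed in how they held when a library was left out. On the gel PGK1, TPI1 and ADM passed in 12 of 12 such fits, LDHA in 11, HK1 in 10, KDM3A in 8, GAPDH in 6, PFKFB3 in 4 and PGAM1 in 2. Leaving out replicate 1 of the gel at 100 nM left 3 members (ADM, PGK1 and TPI1), and leaving out replicate 2 left 4. On plastic ADM passed in 12 of 12, HK1 in 10, PGK1 in 8 and LDHA in 7. Without replicate 2 or replicate 3 of plastic at 250 nM ADM alone passed, and without replicate 1 or replicate 3 of plastic at 100 nM ADM and HK1 did. Leaving out replicate 1 of the gel at 250 nM gave 8 on plastic, with DDIT4, HIF1A, KDM3A and NDRG1 added.

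**Figure D4:**
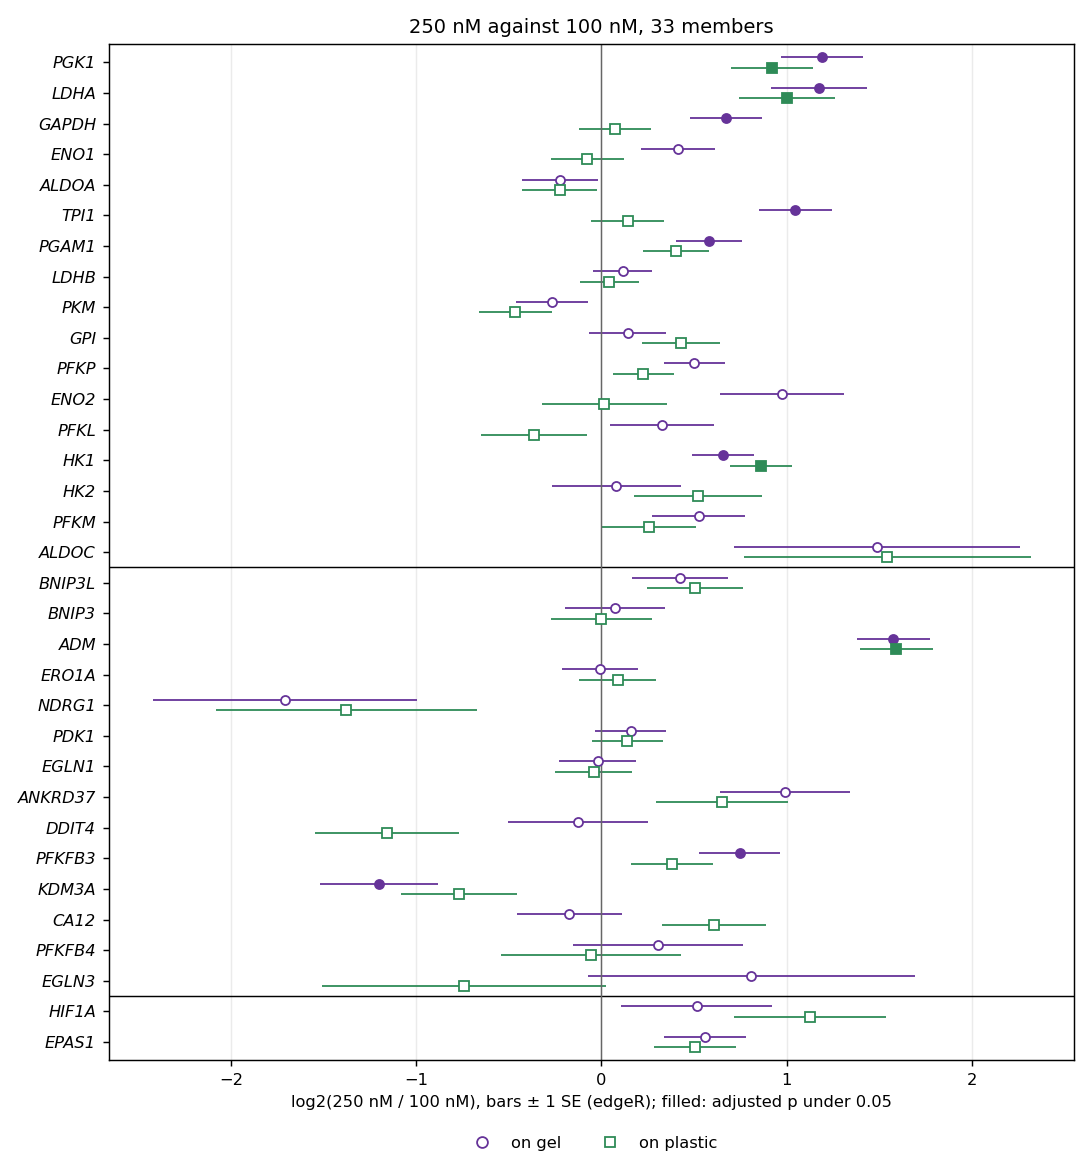
Fitted log2 change of 250 nM over 100 nM for each of the 33 members on the gel (circles) and on plastic (squares), with bars of 1 SE and filled symbols where the adjusted p was under 0.05. ADM stands farthest to the right among the filled symbols and KDM3A is the filled symbol left of 0.

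Several members with wide errors also had large values that did not pass. NDRG1 had 1.32, 65.7 and 46.6 CPM on the gel at 250 nM, against 88.1, 126 and 151 CPM on the gel at 100 nM. On plastic NDRG1 had 50.3, 35.5 and 35.2 CPM at 250 nM, against 46.4, 132 and 136 CPM at 100 nM. The doses were apart on the gel and overlapped on plastic. Its changes were -1.71 ± 0.71 and -1.38 ± 0.71 (edgeR adjusted p = 0.120 and 0.237), and on the gel the lowest value is again replicate 1. ALDOC gave 1.49 ± 0.77 on the gel and 1.54 ± 0.77 on plastic on 107 counts in all. DDIT4 gave -1.16 ± 0.39 on plastic (edgeR adjusted p = 0.0790) and -0.13 on the gel. ENO2 gave 0.97 ± 0.34 and ANKRD37 0.99 ± 0.35 on the gel (edgeR adjusted p = 0.0673 and 0.0749). HIF1A gave 0.51 ± 0.41 on the gel and 1.13 ± 0.41 on plastic (edgeR adjusted p = 0.411 and 0.101). EPAS1 gave 0.56 ± 0.22 and 0.51 ± 0.22 (edgeR adjusted p = 0.105 and 0.165). BNIP3, EGLN1, ERO1A and PDK1, in contrast, stayed within -0.04 and 0.16 on both supports. BNIP3L gave 0.42 and 0.50. Replicate 1 of the gel at 250 nM moved many of the gel values in this paragraph. Without it the change on the gel was 0.46 for ALDOC, for which that library held 21 counts, beside 2 and 6 in the others of its group. It was -1.15 for NDRG1, 0.62 for ENO2, 0.29 for EPAS1, 0.82 for HIF1A, 0.64 for BNIP3L, 0.27 for BNIP3 and 0.19 for DDIT4.

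Isozymes of the same step did not all move alike. LDHA held 82.4 ± 3.82% of LDHA and LDHB TPM on the gel and 80.9 ± 5.50% on plastic at 250 nM, and 73.5 ± 6.14% on the gel and 71.7 ± 2.29% on plastic at 100 nM (SD, n = 3 each). LDHB, the heart-type subunit, changed by 0.11 and 0.04 between doses. PGK1 made up 30.1 ± 1.45% of all enzyme TPM on the gel and 33.1 ± 4.74% on plastic at 250 nM. At 100 nM the PGK1 share was 20.3 ± 1.51% on the gel and 23.3 ± 2.95% on plastic. PFKP, the platelet-type phosphofructokinase, held 62.0 ± 7.37% of the 3 isozymes on the gel and 67.6 ± 4.03% on plastic at 250 nM, and 57.4 ± 1.14% and 59.7 ± 5.31% at 100 nM. ENO2 made up 7.61 ± 2.00% of enolase TPM on the gel at 250 nM and 4.63 ± 1.51% on plastic, against 4.66 ± 0.409% and 4.58 ± 2.81% at 100 nM. These shares are a description, with no test. TPM divides by the effective length of a gene, which also differed between doses for some isozymes. On the gel it averaged 1700 bases at 250 nM and 1446 at 100 nM for ENO1, and 596 and 732 bases for LDHB. For LDHA it was 1843 and 1836 bases, for ENO2 1838 and 1813, and for PGK1 917 and 967. The part of these lengths in the shares was not tested.

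**Figure D5:**
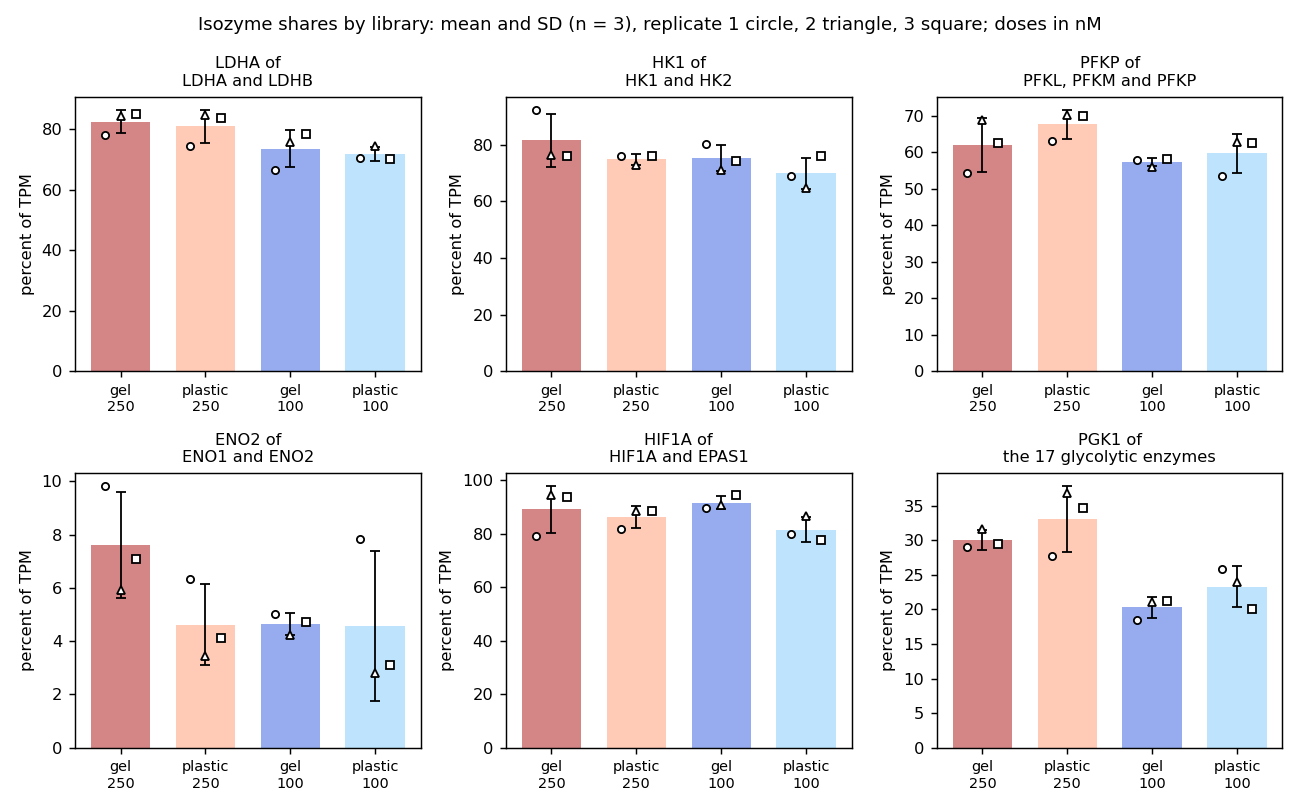
Share of TPM held by LDHA, HK1, PFKP, ENO2, HIF1A and PGK1 within the set named above each panel, by group, with the mean, SD (n = 3) and each library. PGK1 holds 27.8% to 36.8% in the libraries at 250 nM and 18.5% to 25.9% in those at 100 nM.

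PKM, pyruvate kinase, passed between doses in TPM and not in counts. In CPM it had 368, 289.6 and 319 on the gel at 250 nM, against 434, 362 and 379.9 on the gel at 100 nM, a change of -0.27 ± 0.19 (edgeR adjusted p = 0.370). In TPM it had 165, 128 and 139 on the gel at 250 nM, against 349.7, 301 and 303 on the gel at 100 nM, and limma on log2(TPM + 1) called it lower on the gel and on plastic. The effective length that RSEM used for PKM was 2197, 1938 and 2096 bases on the gel at 250 nM, against 1156, 1204 and 1253 bases on the gel at 100 nM. On plastic it was 1950.5, 2012 and 1820.2 bases at 250 nM, against 1791, 1159 and 1214 bases at 100 nM. The effective length of a gene averages over its isoforms, and TPM divides by it. KDM3A also had unequal lengths, at 1492, 1186 and 1899 bases on the gel at 250 nM, against 1127, 3306 and 3058 bases on the gel at 100 nM, and limma on log2(TPM + 1) gave -0.76 for it with an adjusted p of 0.159, in a range of 0.00193 to 0.162 over 24 alternatives.

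Replicate 1 sat low for many members at 250 nM on both supports. It was the lowest of 3 in the gel group and in the plastic group for 14 of 33 members (42.4%), where 20.0% of all tested genes showed this. HIF1A, LDHA, PGK1, BNIP3L, BNIP3 and ERO1A were among them. It was the highest in both groups for 6 of 33 members (18.2%), which were ENO1, ENO2, LDHB, PFKL, PKM and TPI1, where 17.5% of all tested genes showed this. At 100 nM replicate 1 was lowest in both groups for 2 members and highest for 2. With replicate 1 of every group left out, a setting chosen after these values were seen, edgeR called 4 members for the gel at 250 nM, 1 at 100 nM and 6 over both doses. The 6 were ADM and EPAS1, lower on the gel, and ENO2, HIF1A, HK1 and TPI1, higher. The same setting called 12 members between doses on the gel and 15 on plastic. Of the 12329 tested genes it called 91, 501 and 603 in the gel comparisons, 2046 between doses on the gel and 3340 on plastic, so its calls rose over all genes as well.

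GC content moved with several of these contrasts. Over 12227 tested genes with a value, Spearman's rho was taken between a gene's GC percent and its change. For gel against plastic it was 0.31 at 250 nM, -0.02 at 100 nM and 0.22 over both doses. Between doses it was 0.36 on the gel and 0.15 on plastic. Over the 33 members rho was 0.27, -0.20, 0.17, 0.03 and -0.22 in that order. Within groups, the difference of replicate 1 from replicates 2 and 3 was also set against GC percent over all tested genes. There rho was 0.30 for the gel at 250 nM, 0.24 for plastic at 100 nM and -0.08 for the gel at 100 nM. These correlations are across genes, which share libraries and depth and are not replicates. The median GC content was 54.0% over the 33 members and 48.5% over all tested genes with a value. PGK1 and LDHA have GC contents of 43.3% and 45.4%, TPI1 and GAPDH of 55.8% and 56.9%, and ADM of 59.4%. The part of GC content in the results was not tested.

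Genes that act beside the members were read from lists of the same pathways. Of 10 tested HIF partners and oxygen sensors (ARNT, VHL, HIF1AN and the like), 0 were called for the gel, 1 fell between doses on the gel and 1 rose and 1 fell on plastic. The counts of this and the following lists stand beside the 13.8% of all tested genes called between doses on the gel and the 8.52% on plastic given above. CUL2, the scaffold of the VHL ligase, fell by 1.54 on the gel and by 1.27 on plastic (log2), with 10.9, 14.5 and 16.8 CPM on the gel at 250 nM, against 47.7, 36.5 and 37.8 CPM on the gel at 100 nM (edgeR adjusted p = 0.00639 and 0.0170). HIF1AN, the asparaginyl hydroxylase that restrains HIF, rose by 0.70 ± 0.19 on plastic (edgeR adjusted p = 0.0361). For the gel over both doses the largest values were CITED2 at -0.65, ARNT2 at -0.62, ARNT at -0.39 and CUL2 at 0.35, none of which passed. The median of this list was -0.15 for the gel over both doses and 0.25 and -0.21 between doses on the gel and on plastic, beside 0.00, -0.02 and -0.03 for all tested genes.

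Among 32 further HIF target genes, STC1 was the one that passed for the gel. STC1 encodes the secreted glycoprotein stanniocalcin. It had 2331, 2202 and 2007 CPM on the gel at 250 nM, against 1345, 1083 and 1150.0 CPM on plastic. At 100 nM STC1 had 3727, 1474 and 2089.8 CPM on the gel, against 527, 480.3 and 771 CPM on plastic. All gel libraries were higher than all plastic libraries at both doses, with 2.04 ± 0.30 at 100 nM, a ratio of 4.10 (edgeR adjusted p = 0.0172), and 1.45 ± 0.21 over both doses (edgeR adjusted p = 0.00583). The call over both doses held in 12 of 12 fits that left out a library, and that at 100 nM in 9 of 12, not without replicate 1 or 2 of plastic or replicate 3 of the gel at 100 nM. LOX, the collagen cross-linking enzyme, was lower in all gel libraries of both doses without passing, at -1.03 ± 0.22 (edgeR adjusted p = 0.0533). ANGPTL4 gave 1.17 ± 0.46 and HMOX1 0.67 ± 0.35, both with overlap. Between doses 1 of the 32 rose and 1 fell on the gel, and 3 rose and 1 fell on plastic. VEGFA, the angiogenic growth factor, had 46.7, 61.9 and 57.1 CPM on the gel at 250 nM, against 106, 86.6 and 83.3 CPM on the gel at 100 nM, and fell there by 0.74 on the log2 scale (edgeR adjusted p = 0.0287). FUT11 rose by 0.79 on the gel and 0.85 on plastic, and PLOD1, a collagen lysyl hydroxylase, by 0.86 on plastic (edgeR adjusted p = 0.0289, 0.0295 and 0.0176). STC1 rose by 1.01 on plastic (edgeR adjusted p = 0.0479), a call held in 4 of 12 fits that left out a library. SLC16A3, the lactate exporter, fell by 0.83 on plastic (log2; edgeR adjusted p = 0.0318).

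Of 11 tested isozymes, regulators and carriers, 0 were called for the gel and 1 fell between doses on the gel. That was SLC16A7, a lactate and pyruvate carrier, with 0, 7.25 and 4.62 CPM on the gel at 250 nM, against 27.5, 16.4 and 14.8 CPM on the gel at 100 nM (-2.39 ± 0.61; edgeR adjusted p = 0.0221). On plastic the glucose carriers SLC2A6 and SLC2A8 rose, by 1.49 and 1.49, and SLC2A10 fell by 2.22 (edgeR adjusted p = 0.0310, 0.0234 and 0.0152). The largest gel values were SLC16A7 at -0.78, PFKFB2 at 0.51, BPGM at 0.42 and TXNIP at -0.41. In the list for pyruvate entry into mitochondria 1 of 11 tested genes passed, PDHA1, a subunit of pyruvate dehydrogenase, which rose between doses on the gel (1.06 ± 0.30; edgeR adjusted p = 0.0335). PDHA1 had 106, 65.3 and 62.1 CPM on the gel at 250 nM, against 19.7, 47.9 and 44.4 CPM on the gel at 100 nM. The largest gel values of that list were DLAT at 0.30, PDHB at -0.26, PDP2 at 0.24 and PDHA1 at 0.13. None of the 7 pentose phosphate genes passed in any of the 6 comparisons by edgeR, with 1 or 2 at an unadjusted p under 0.05 in each gel comparison. The medians for the gel over both doses were 0.03 for the further HIF target genes, -0.02 for isozymes and carriers, 0.00 for pyruvate entry and 0.12 for the pentose phosphate genes. Between doses they were -0.08, 0.09, 0.02 and 0.06 on the gel, and 0.02, 0.34, 0.24 and -0.59 on plastic. When single libraries were left out, the call of CUL2 on the gel held in 12 of 12 fits and that of SLC16A7 in 11, while VEGFA and FUT11 on the gel held in 7 each, PDHA1 in 9, and on plastic PLOD1, SLC2A10 and CUL2 held in 9 each, FUT11 in 8, SLC2A6 and SLC2A8 in 7 each, SLC16A3 in 6 and HIF1AN in 5.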

How the data were processed

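The 12 deposited gene tables hold, per the file headers, RSEM expected counts, TPM, FPKM and lengths for 61541 Ensembl gene IDs; 61369 were named from a table of gene names and 159 more from GENCODE 29, which also gave positions (GRCh38). Per the submitters' processing notes, Trimmomatic, STAR, RSEM and DESeq2 1.36.0 were used with build GRCh38; the annotation release, strand use and any read collapsing were not given in sources used here. The authors deposited expected counts without normalization, TPM scaled by RSEM to a fixed sum, and FPKM, which was not used.

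Expected counts were rounded. edgeR 4.0.16 (R 4.3.3) was fitted over all 12 libraries with 1 mean per group (8 residual degrees of freedom), TMM factors and filterByExpr; 12329 genes were tested with glmQLFTest, and a gene is called at a Benjamini-Hochberg adjusted p under 0.05 over all of them. CPM uses the scaled library sizes, and SE is the log2 change divided by the root of F. Alternatives included DESeq2 1.42.0 and limma 3.58.1. The scripts were tested on simulated data. Each member matched 1 ID. The members and all lists were chosen with earlier results of these data known. Library values are given for members called in any of the 6 comparisons, the 2 with the largest change in each gel comparison, the 2 most abundant of the enzymes and of the HIF target genes, and both alpha subunits. Of the other lists, called genes and the 4 with the largest gel change at a mean CPM of at least 1 are named, except for the pentose phosphate list, whose single values are not reported here; values of PFKL, NDRG1, PKM and LOX were added after they were seen. For CA9, 3 counts over a group would be 0.147 to 0.421 CPM; this covers counting error only.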

Additional observations from a re-analysis of the deposited data

How the results depend on the processing

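Of 24 alternatives, 2 were chosen after the data were seen: leaving out the 2 libraries low in ribosomal repeat loci, and leaving out replicate 1 of every group. No value of a named member that was called reversed its direction. Of 312 alternative values of the 13 called changes, 240 stayed past the threshold and 72 did not. For gel against plastic, 0 members were called with edgeR; with no low-count filter the counts were 2 at 250 nM, 1 at 100 nM and 3 over both doses, with DESeq2 1 at 250 nM and 3 over both doses, with limma-voom and sample weights 3, 2 and 7, and without replicate 1 of every group 4, 1 and 6. Leaving out each library in turn gave 0 to 1 over both doses. Between doses on the gel 9 were called, against 15 with limma-voom and sample weights, 5 with limma-trend on log2(TPM + 1) and 5 with a pseudocount of 0.1, and 4 with only the 6 libraries compared; leaving out each library gave 3 to 9. On plastic 4 were called, against 7 without a filter, 13 with limma-voom and sample weights, 2 with limma-trend on log2(TPM + 0.1), 7 with only the 6 libraries compared, 8 without the 2 libraries low in repeat loci and 15 without replicate 1 of every group; leaving out each library gave 1 to 8. The causes were not tested. Among all genes edgeR called 1 (250 nM), 28 (100 nM) and 93 (doses together) for the gel, then 1703 between doses on the gel and 1050 on plastic. DESeq2 called 97, 163, 385, 2404 and 1667, limma-voom 161, 447, 801, 2929 and 3173, edgeR without replicate 1 of every group 91, 501, 603, 2046 and 3340, edgeR without a filter 231, 335, 573, 2255 and 1451 (and 129 for the difference between doses), and the replicate block 1, 9, 39, 794 and 518. Limma-trend on log2(TPM + 1) called 7, 53 and 701 at 100 nM, over both doses and on plastic between doses, and edgeR on only the 6 libraries compared called 5 at 100 nM, and 533 on the gel and 1655 on plastic between doses. Of the calls on the gel between doses 852 were higher and 851 lower, against 832 and 1423 without a filter and 514 and 924 in the TPM + 1 fit, in which all genes had a median of -0.11. The replicate numbers were checked as pairs. Correlations of same-numbered libraries' deviations were 0.11, 0.06 and 0.04 at 250 nM and -0.21, 0.14 and -0.24 at 100 nM. Those of differently numbered libraries ran from -0.09 to 0.06 at 250 nM and from -0.29 to 0.39 at 100 nM. Replicate 1 was the lowest in both groups at 250 nM for 20.0% of all tested genes. Whether the numbers mark pairs was not settled by these values. The replicate block gave 0 members for the gel comparisons, 6 on the gel between doses and 4 on plastic. On the gel HK1, GAPDH, PGAM1 and PFKFB3 were not called with it (adjusted p of 0.0575, 0.0623, 0.0746 and 0.0885) and ENO2 was (0.0353). Of the other lists' calls it did not give STC1 at 100 nM and on plastic between doses, VEGFA, SLC16A7, PDHA1 and FUT11 on the gel, nor CUL2, SLC2A6, HIF1AN and FUT11 on plastic. Depth limits the rare members: EGLN3 and ALDOC had 112 and 107 counts over all 12 libraries.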
